A study of Mus musculus with 4 samples.

Results

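The Ikaros family comprises 5 mouse genes, Ikzf1 to Ikzf5, which encode the zinc finger transcription factors Ikaros, Helios, Aiolos, Eos and Pegasus. DNA methylation at these genes was taken from whole-genome bisulfite sequencing, in which unmethylated cytosines are converted and read as thymine while methylated cytosines are read as cytosine. All 5 members were found among the 48252 RefSeq genes with at least 1 usable position. Each locus was the gene with 5 kb on either side. The deposited table listed 6215 cytosine positions at these loci, and 1053 of them, or 16.9%, had at least 5 reads in all 4 libraries. The same share over the genome was 18.9%. Those positions filled 94 windows of 1 kb with at least 5 usable positions each, of 314517 windows in all.

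The DNA was that of CD4+ T cells sorted out of the spleens of NOD mice, which become diabetic by autoimmunity. The groups were OX40L-JAG1 Treg, OX40L-JAG1 Teff, PBS Treg and PBS Teff, with 1 library each, all from mice sampled at the age of 10 weeks. Treatment with OX40L and Jagged-1 proteins or with PBS began at 6 weeks of age. Treg were sorted as CD4+CD25hi cells and Teff as CD4+CD25- cells, a gate that does not use Foxp3, and the number of animals behind a library is not labelled. With a single library per group, every test here compares 2 libraries and not 2 conditions. In bulk DNA, fewer methylated cells and fewer methylated alleles per cell cannot be told apart.

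Ikaros proteins bind DNA through zinc fingers near one end and pair with each other through zinc fingers at the other end. Ikaros, Helios, Aiolos and Eos act in lymphocytes, often as repressors that recruit the NuRD complex, and their core recognition sequence holds GGGAA. Helios marks a large share of Treg and helps to keep them stable. Eos works with Foxp3 in Treg to silence genes of effector T cells. Ikaros and Aiolos direct the development of B and T cells, and Pegasus is a more distant and broadly expressed member.

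The positions of Ikzf2 with usable coverage numbered 494, against 246 at Ikzf3, 127 at Ikzf4, 111 at Ikzf1 and 75 at Ikzf5. They filled 43 windows at Ikzf2, 24 at Ikzf3, 13 at Ikzf4 and 7 each at Ikzf1 and Ikzf5. Over the genome a usable position held a median of 9 reads in OX40L-JAG1 Treg, 11 in OX40L-JAG1 Teff, 10 in PBS Treg and 14 in PBS Teff. A read was counted at each position it covered, so the reads of a window or a locus come from fewer DNA molecules. Levels carry 95% Wilson intervals and differences 95% Newcombe intervals, and both cover counting error only. Both treat every counted read as a separate molecule, so they are narrower than the molecules allow. Positions are those of the build mm10, and the RefSeq gene table of GRCm38.p6 used for gene bounds holds neither strand nor exons, so exon, intron and UTR were not told apart.

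Promoter sequences were at hand for Ikzf1 and Ikzf5 and for Gm26876, a non-coding RNA gene inside the Ikzf4 locus. They are from RefSeq (GRCm38.p6), run 5' to 3' on the strand of the gene, and cover 250 bases before to 50 bases after a start. They are shown because they hold the CpGs at which the start sites of the family were read, and capitals mark each CpG with reads in at least 1 library. The first belongs to the second of the Ikzf1 starts in the table (chr11:11689927-11690226, plus strand), the next to Ikzf5 (chr7:131410429-131410728, minus strand) and the last to Gm26876 (chr10:128645634-128645933, plus strand).
Ikzf1 second start: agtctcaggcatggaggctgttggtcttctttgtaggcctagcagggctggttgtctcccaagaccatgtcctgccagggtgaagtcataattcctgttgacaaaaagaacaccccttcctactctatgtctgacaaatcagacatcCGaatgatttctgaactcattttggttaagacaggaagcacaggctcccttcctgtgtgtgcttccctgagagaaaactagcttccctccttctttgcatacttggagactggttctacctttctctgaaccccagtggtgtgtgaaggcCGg
Ikzf5: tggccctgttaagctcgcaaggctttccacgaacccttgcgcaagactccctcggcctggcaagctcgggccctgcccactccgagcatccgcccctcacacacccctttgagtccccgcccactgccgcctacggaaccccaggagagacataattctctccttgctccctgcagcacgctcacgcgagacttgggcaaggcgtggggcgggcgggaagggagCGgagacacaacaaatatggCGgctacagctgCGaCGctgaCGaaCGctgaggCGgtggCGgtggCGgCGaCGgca
Gm26876: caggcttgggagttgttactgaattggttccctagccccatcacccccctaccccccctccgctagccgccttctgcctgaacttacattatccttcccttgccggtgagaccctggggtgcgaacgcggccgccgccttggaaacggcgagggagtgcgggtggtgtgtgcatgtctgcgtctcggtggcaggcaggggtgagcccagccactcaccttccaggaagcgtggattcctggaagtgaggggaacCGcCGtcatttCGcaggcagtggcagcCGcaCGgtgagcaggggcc
The Ikzf1 promoter shown holds 2 CpGs, and no read there was methylated, of 5 reads in OX40L-JAG1 Treg, 10 in OX40L-JAG1 Teff, 11 in PBS Treg and 6 in PBS Teff. Since neighbouring CpGs can lie on the same reads, the limit was taken from the most deeply read position, and these counts of 0 still allow levels of up to 60%, 60%, 50% and 50% in the same order of libraries. The Ikzf5 promoter holds 27 CpGs, of which 11 were read, all in OX40L-JAG1 Teff, with 2 of 59 reads methylated. At Gm26876, 5 of 19 CpGs were read, with 0 of 30 reads methylated in OX40L-JAG1 Treg and 1 of 24 methylated in PBS Teff. At 7 reads at the deepest of these positions, the count of 0 allows up to 42.9%. The first Ikzf1 start, chr11:11685675-11685974, is not printed, since 1 of its 52 CpGs was read, with 0 of 5 reads methylated in OX40L-JAG1 Teff, which allows up to 60%. None of these positions had reads in all 4 libraries, so no comparison was made in the promoters. The sequence GGGAA, searched on both strands as GGGAA or TTCCC, occurred 2 times in the Ikzf1 promoter shown and 0 times at the first Ikzf1 start, 1 time in that of Ikzf5 and 3 times in that of Gm26876, and 62.7% of 32851 RefSeq promoters hold it at least once.

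Over whole loci, Ikzf2 and Ikzf4 were less methylated in Treg than in Teff under both treatments, Ikzf1 was more methylated in Treg, and Ikzf3 and Ikzf5 lay within a few points in all 4 libraries. Ikzf2 (RefSeq gene 22779, chromosome 1, 69531207 to 69687351) stood at 53.8% in OX40L-JAG1 Treg, 80.1% in OX40L-JAG1 Teff, 60.6% in PBS Treg and 83.9% in PBS Teff. Its 4 Wilson intervals did not overlap, in the order OX40L-JAG1 Treg, PBS Treg, OX40L-JAG1 Teff, PBS Teff. Since reads that cover several positions are counted at each, the intervals are too narrow to place the smaller gaps beyond counting error. Ikzf4 (gene 22781, chromosome 10, 128630839 to 128669671) stood at 58.5%, 73.5%, 63.3% and 74.3% in the same libraries, and only the 2 Teff intervals overlapped. Ikzf1 (gene 22778, chromosome 11, 11684962 to 11772930) stood at 48.8% in OX40L-JAG1 Treg, 33.5% in OX40L-JAG1 Teff, 46.9% in PBS Treg and 37.8% in PBS Teff. Its intervals overlapped between the 2 Treg libraries and between the 2 Teff libraries, but not between cell types. These Ikzf1 levels rest on 8.93% of its listed positions, the lowest share of the members. Ikzf3 (gene 22780, chromosome 11, 98464610 to 98546031) stood at 75.2%, 77.8%, 73.3% and 75.6%, and Ikzf5 (gene 67143, chromosome 7, 131388649 to 131410518) at 79.3%, 82.7%, 80.7% and 82.5%, with overlapping intervals between neighbours in the order of levels.

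**Figure D1:**
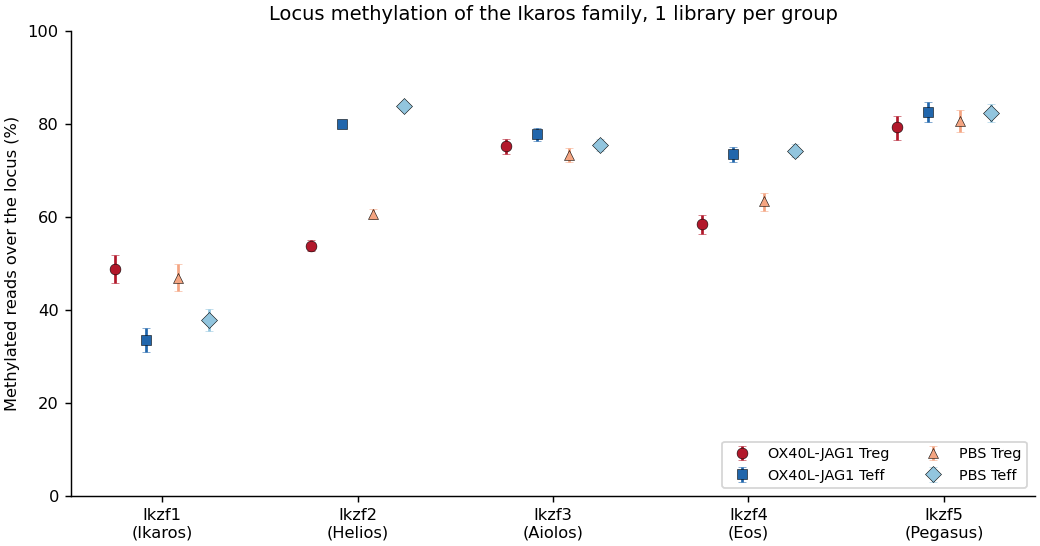
Methylated reads as a percentage of all reads over each locus (y axis) for the 5 members (x axis), with 95% Wilson intervals as bars and 1 library per group. At Ikzf2 both Treg libraries, at 53.8% and 60.6%, lie below both Teff libraries, at 80.1% and 83.9%, and at Ikzf1 both Treg libraries lie above both Teff libraries.

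The locus differences of 3 members were far out among the 23720 genes with at least 30 usable positions. In the OX40L-JAG1 pair, Ikzf2 differed by -26.3 points (-27.7 to -24.8), and 0 of these genes had a lower value. Its difference in the PBS pair was -23.4 points (-24.6 to -22.1), with 2 genes lower. Genes with fewer usable positions were not ranked and can differ more. Ctla4, with 25 usable positions, differed by -40.0 points in the OX40L-JAG1 pair and -46.9 points in the PBS pair. Ikzf4 differed by -15.0 points (-17.6 to -12.4) in the OX40L-JAG1 pair, with 9 genes lower, and by -10.9 points (-13.3 to -8.54) in the PBS pair, with 55 genes lower. Without deep positions, those over 3 times the median depth, the Ikzf4 values were -11.7 and -1.09 points, and as means over positions they were -6.84 and -6.86 points. Ikzf1 differed by 15.3 points (11.3 to 19.2) and by 9.09 points (5.36 to 12.8), with 9 and 106 genes higher. The middle 90% of genes ran between -3.52 and 4.48 points in the OX40L-JAG1 pair and between -3.95 and 3.57 points in the PBS pair. Ikzf3 differed by -2.52 and -2.27 points and Ikzf5 by -3.35 and -1.76 points, inside those ranges. These ranks rest on very different numbers of reads, from 947 at Ikzf5 in OX40L-JAG1 Treg up to 10584 at Ikzf2 in PBS Teff.

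Windows were compared by two-sided Fisher's exact tests on methylated and unmethylated reads with Benjamini-Hochberg adjustment over all 314517 windows, and a call required both an adjusted p below 0.05 and 20 points or more between the libraries. In the OX40L-JAG1 pair 24 of the 94 family windows were lower in Treg and 1 was higher, where 0.0588% of all windows were lower and 0.0547% higher. In the PBS pair 22 were lower and 1 was higher, against 0.165% and 0.115% of all windows. In the same direction in both pairs, 21 family windows were lower and 0 higher, against 0.0337% and 0.0223% of all windows. Ikzf2 held 19 of the 21 and Ikzf4 the other 2.

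At Ikzf2, 19 windows were called lower in Treg in both pairs and most of the other 24 were highly methylated. The 19 windows called in both pairs had a median level of 25.6% in OX40L-JAG1 Treg (6.06% to 54.9%), 84.0% in OX40L-JAG1 Teff (56.1% to 100%), 31.4% in PBS Treg (6.0% to 68.7%) and 86.7% in PBS Teff (55.6% to 97.8%). Since the windows were chosen by these calls, Treg lay below Teff within each pair by the choice, and the median levels partly follow from it. The Treg and Teff ranges overlapped only in the PBS pair. Across the pairs too, each Treg library was below the Teff library of the other pair in every one of these windows. The other 24 windows had medians of 78.3%, 92.4%, 88.6% and 94.4% in the same order, and the lowest of them was between 0% and 0.733% in each library. Next to Ikzf2 in the number of windows lower in both pairs came Rhoh, with 3 of 6.

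The low windows were not spread evenly along the gene. In 20-kb steps counted from the lower-coordinate end of Ikzf2, the first step, 0 to 20 kb, stood at 46.5% in OX40L-JAG1 Treg, 82.5% in OX40L-JAG1 Teff, 52.6% in PBS Treg and 90.6% in PBS Teff. Between 20 and 100 kb the Treg minus Teff differences were smaller, between -19.9 and -15.9 points with OX40L-JAG1 and between -19.9 and -7.99 points with PBS. Within the gene they were largest between 120 and 140 kb, where the levels were 24.8%, 75.4%, 29.4% and 74.7% and the differences -50.6 and -45.4 points. Past the gene, the flank beyond 160 kb held 2 positions with differences of -76.9 and -62.5 points. Between 100 and 120 kb they were -42.4 and -26.9 points. Low Treg levels were thus found toward both ends of the gene, with a middle where Treg and Teff lay closer. At the higher-coordinate end, the windows starting at 69685001, 69686001 and 69688001 were between 0% and 3.30% in every library.

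**Figure D2:**
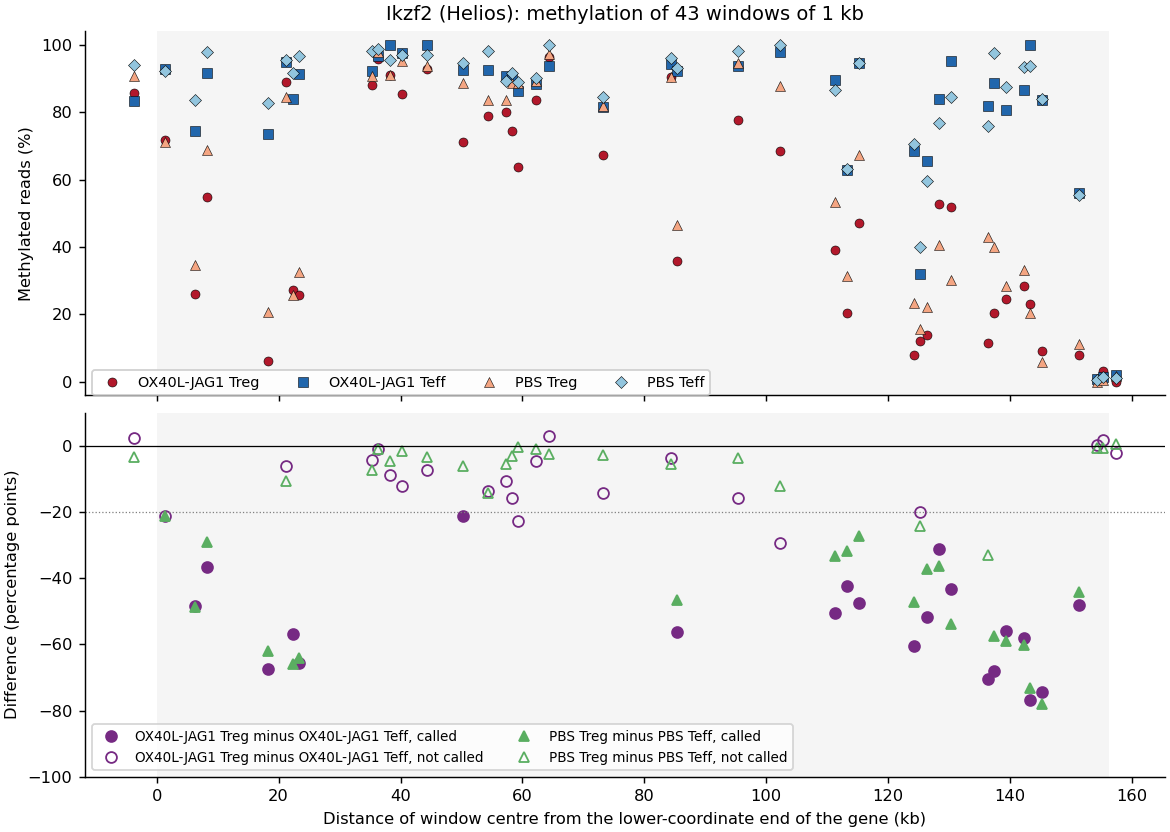
Levels (upper panel, %) and Treg minus Teff differences (lower panel, percentage points) of the 43 Ikzf2 windows against distance from the lower-coordinate end of the gene in kb, with the gene shaded and filled symbols for called windows. Treg levels fall far below Teff near both ends of the gene, 1 isolated window near 85 kb does the same, and 3 windows at the far right are near 0% in all libraries.

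The window at 69674001 to 69675000 had 23.1% of 39 reads methylated in OX40L-JAG1 Treg, 100% of 28 in OX40L-JAG1 Teff, 20.5% of 44 in PBS Treg and 93.6% of 47 in PBS Teff. The differences were -76.9 points (-87.4 to -57.5) and -73.2 points (-83.4 to -55.5) in the OX40L-JAG1 and PBS pairs. Its 5 positions lay within 81 bases and no position had more than 12 reads in any library, so few molecules stand behind these levels. The window at 69549001, near the other end of the gene, stood at 6.06%, 73.5%, 20.8% and 82.9% on 66, 102, 101 and 140 reads in OX40L-JAG1 Treg, OX40L-JAG1 Teff, PBS Treg and PBS Teff. It differed by -67.5 points (-75.9 to -54.9) in the OX40L-JAG1 pair and by -62.1 points (-70.7 to -50.7) in the PBS pair.

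The rest of the 8 called windows ranked highest by their differences follow, so their large differences come from the choice. At 69554001 the 4 levels were 25.6%, 91.4%, 32.6% and 96.7%, and at 69668001 they were 20.5%, 88.6%, 40.0% and 97.6%. At 69553001 they were 27.1%, 83.9%, 25.9% and 91.7%. More deeply read were 69673001, at 28.4%, 86.5%, 33.2% and 93.4% on 211 to 302 reads, and 69670001, at 24.5%, 80.6%, 28.5% and 87.4% on 208 to 358 reads. The window at 69676001, with the largest difference of the gene in the PBS pair, stood at 9.30%, 83.6%, 6.0% and 84.0%. All 8 windows were called lower in both pairs, and the weakest of them by Fisher's exact test had a Benjamini-Hochberg adjusted p of 1.09e-06, at 69668001 in the PBS pair.

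Some of these windows hold positions with far more reads than usual. Positions over 3 times the median depth of a library, that is over 27, 33, 30 and 42 reads, made up 13.2% of usable positions at Ikzf2 and 13.3% in the genome. Without such positions 14 of the 19 windows could still be tested, and 13 of the 14 were called lower in both pairs. With all read numbers divided by 3, to allow for reads counted at several positions, 7 of the 19 were still called. Dividing leaves the levels unchanged but for rounding, so it does not test the direction of the differences.

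Single cytosines gave the same picture at finer grain, from the same reads that the windows and loci were summed from, so this is no separate evidence. In the OX40L-JAG1 pair 252 of the 494 Ikzf2 positions, or 51.01%, were lower in Treg by at least 20 points and 5 were higher, where 6.33% and 7.14% of all positions were. In the PBS pair 207 positions, or 41.9%, were lower by that much and 3 were higher, against 4.93% and 4.28% of all. In both pairs at once 178 positions, or 36.0%, were lower and 0 higher, against 0.803% and 0.797%. By Fisher's exact test with adjustment over all 4795059 positions, 18 Ikzf2 positions were called lower and 0 higher in the OX40L-JAG1 pair, where 0.00148% and 0.00073% of all positions were. In the PBS pair 27 were called lower and 0 higher, against 0.00943% and 0.00751%.

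The position at 69550088, the most divergent of the gene, had 0 of 7 reads methylated in OX40L-JAG1 Treg, 8 of 9 in OX40L-JAG1 Teff, 0 of 6 in PBS Treg and 12 of 12 in PBS Teff. At this depth a count of 0 still allows a level of 42.9% or 50%, and the position was not called in either pair. Positions 69554787, 69676386 and 69676392 also had 0 methylated reads in both Treg libraries, of 7 and 6 reads each, and levels between 87.5% and 92.9% in both Teff libraries. Position 69648960 had 0 of 6 in OX40L-JAG1 Treg, 6 of 6 in OX40L-JAG1 Teff, 1 of 5 in PBS Treg and 7 of 7 in PBS Teff.

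Few positions were high in both Teff libraries and low in both Treg libraries. Levels of at least 80% were found at 160 of the 494 positions in OX40L-JAG1 Treg, 348 in OX40L-JAG1 Teff, 211 in PBS Treg and 380 in PBS Teff. Levels of 20% or less were found at 143, 44, 107 and 50 positions. Both Teff libraries were at 80% or more at 328 positions. Of these 328, both Treg libraries were at 20% or less at 16 and at 80% or more at 133. Most Treg levels at such positions therefore lay between the extremes or differed in class between the 2 Treg libraries. The Ikzf2 positions held a median of 8 reads in OX40L-JAG1 Treg, 10 in OX40L-JAG1 Teff, 9 in PBS Treg and 13 in PBS Teff. At this depth a few reads move a position between classes, so these counts do not separate partial methylation from counting error.

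**Figure D3:**
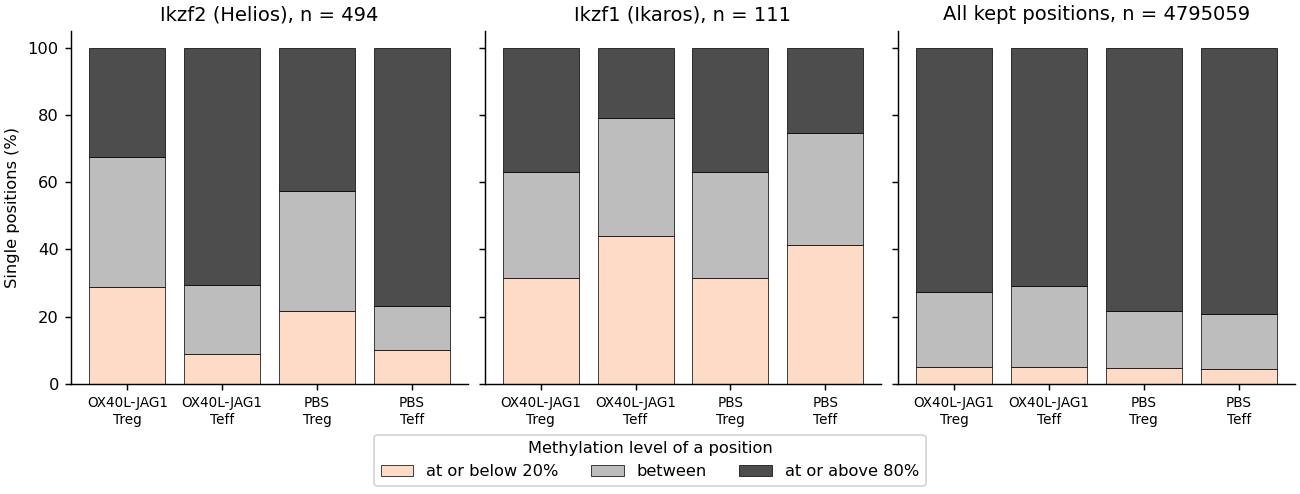
Share of single positions (y axis, %) at or below 20%, between, and at or above 80% methylation in each library, for Ikzf2, Ikzf1 and all usable positions. At Ikzf2 positions at 80% or more make up 32.4% in OX40L-JAG1 Treg and 42.7% in PBS Treg, against 70.4% and 76.9% in the Teff libraries, while at Ikzf1 they are more frequent in Treg.

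Between the OX40L-JAG1 and PBS libraries, the Ikzf2 difference was close to that of the median gene in Teff and lower than that of most genes in Treg. The locus difference of OX40L-JAG1 minus PBS was -6.72 points (-8.32 to -5.11) in Treg, with 1071 of 23720 genes lower, and -3.82 points (-4.91 to -2.73) in Teff, with 8845 genes lower. The medians over genes were -2.11 and -2.96 points. Of the 43 windows, 32 had a lower level in OX40L-JAG1 Treg than in PBS Treg, or 74.4%, where 67.6% of all windows did. The median window difference was -4.86 points at Ikzf2 and -2.14 points over all windows. Only the window at 69646001 was called lower and 0 were called higher, where 0.0811% and 0.0194% of all windows were. It stood at 47.1% of 221 reads in OX40L-JAG1 Treg and 67.4% of 233 in PBS Treg, a difference of -20.3 points (-28.9 to -11.2), and Fisher's exact test gave a Benjamini-Hochberg adjusted p of 0.0116. The Teff levels of that window were both 94.7%. Deep positions made up 4 of its 6, the call was lost without them, and it was also lost with centred differences or with reads divided by 3.

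The lower level in OX40L-JAG1 Treg was seen in each 20-kb step of Ikzf2. It was largest within the gene at 100 to 120 kb, with 42.3% in OX40L-JAG1 Treg and 58.2% in PBS Treg, and at 60 to 80 kb, with 62.0% and 75.7%. The Teff libraries in those steps were at 84.7% and 80.5% with OX40L-JAG1 and at 85.1% and 83.7% with PBS. At single positions, 106 of 494, or 21.5%, were at least 20 points lower in OX40L-JAG1 Treg than in PBS Treg, and 30, or 6.07%, were higher, where 9.41% and 3.93% of all positions were. In Teff, where 0.469% of all windows were called lower, 0 Ikzf2 windows were called. The window at 69527001, in the flank of the gene, stood at 83.4% of 877 reads in OX40L-JAG1 Teff and 94.1% of 968 in PBS Teff, and its -10.8 points fell short of 20 points, though Fisher's exact test gave a Benjamini-Hochberg adjusted p of 3.2e-10. Its position 69527455 was the single Ikzf2 position called lower in Teff, where 0.0255% of all positions were, with 40 of 74 reads methylated in OX40L-JAG1 Teff and 89 of 100 in PBS Teff. The Wald test of the interaction between cell type and treatment called 0 of the 94 family windows, where 0.0108% of all windows were called at an adjusted p below 0.05 and 20 points or more. At that background share a count of 0 in 94 windows says nothing particular about the members.

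The Ikzf4 windows called lower in Treg lay between 6 and 12 kb from the lower-coordinate end of the gene. The window at 128637001 to 128638000 had 9.05% of 475 reads methylated in OX40L-JAG1 Treg, 41.5% of 605 in OX40L-JAG1 Teff, 11.5% of 558 in PBS Treg and 42.4% of 786 in PBS Teff. The differences were -32.4 points (-37.0 to -27.6) in the OX40L-JAG1 pair and -30.9 points (-35.1 to -26.4) in the PBS pair. The window at 128641001 stood at 64.8%, 91.8%, 69.4% and 97.8% on 125, 147, 147 and 185 reads, with differences of -27.0 and -28.5 points. Both windows were called lower in both pairs. The window at 128640001, between them, had 42.4% of 33 reads in OX40L-JAG1 Treg, 76.3% of 38 in OX40L-JAG1 Teff, 67.7% of 31 in PBS Treg and 92.7% of 41 in PBS Teff, and was not called. The other 10 windows had Treg minus Teff differences between -10.3 and 6.07 points, and 128646001 was at or below 7.69% in every library.

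Most of the reads at 128637001 came from few positions. Of its 9 positions, 5 were deep and held 443 of 475, 578 of 605, 521 of 558 and 738 of 786 reads in OX40L-JAG1 Treg, OX40L-JAG1 Teff, PBS Treg and PBS Teff. At the deep positions the levels were 9.48%, 43.1%, 12.3% and 44.9%. The other 4 positions had 1 of 32, 2 of 27, 0 of 37 and 2 of 48 reads methylated, so that all libraries were low there. Position 128637753, which carried much of the difference, had 11 of 75 reads methylated in OX40L-JAG1 Treg, 78 of 113 in OX40L-JAG1 Teff, 18 of 102 in PBS Treg and 106 of 134 in PBS Teff. Its adjusted p by Fisher's exact test over all positions was 2.13e-08 in the OX40L-JAG1 pair and 4.51e-16 in the PBS pair, with Benjamini-Hochberg adjustment. Position 128637761, 8 bases away, stood at 16.9%, 62.5%, 21.6% and 70.5%. The other 3 of the 5 most divergent positions were also lower in Treg in both pairs but were called in neither. Position 128665477, at 34.6 kb, had 0 of 13 reads methylated in OX40L-JAG1 Treg, 7 of 16 in OX40L-JAG1 Teff, 1 of 10 in PBS Treg and 10 of 16 in PBS Teff. Position 128643716, at 12.9 kb, had 2 of 7, 5 of 7, 0 of 5 and 5 of 7 in the same libraries, and 128640722 had 3 of 7, 7 of 7, 3 of 5 and 8 of 8. Without deep positions 9 Ikzf4 windows could be tested and 0 were called, and the locus difference was -11.7 points in the OX40L-JAG1 pair and -1.09 points in the PBS pair. What made these positions deep was not tested.

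Ikzf1 ran the other way from Ikzf2 and Ikzf4. At single positions, 39 of 111, or 35.1%, were at least 20 points higher in OX40L-JAG1 Treg than in OX40L-JAG1 Teff and 3 were lower. In the PBS pair 28, or 25.2%, were higher in Treg and 8 lower. In both pairs at once 21 positions, or 18.9%, were higher and 2 lower, against 0.797% and 0.803% of all positions, but 0 single positions were called. Position 11764509, the best covered of the 5 most divergent ones, had 15 of 17 reads methylated in OX40L-JAG1 Treg, 8 of 21 in OX40L-JAG1 Teff, 13 of 15 in PBS Treg and 9 of 33 in PBS Teff. Its adjusted p in the PBS pair was 0.452 by Fisher's exact test. Positions 11709470 and 11709482, 12 bases apart, were higher in Treg as well, with levels of 100% and 80% in OX40L-JAG1 Treg, 60% and 36.4% in OX40L-JAG1 Teff, 75.0% and 62.5% in PBS Treg, and 0% and 14.3% in PBS Teff on 5 to 11 reads. Position 11719828 stood at 80%, 25%, 70% and 35.3% in the same order, while 11727819, at 71.4%, 14.3%, 16.7% and 66.7%, differed in opposite directions in the 2 pairs.

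The 7 Ikzf1 windows held little of this. The window at 11727001 was the only one called, at 65.6% of 32 reads in OX40L-JAG1 Treg and 14.3% of 28 in OX40L-JAG1 Teff, 51.3 points apart (26.9 to 67.7) and Fisher's exact test gave a Benjamini-Hochberg adjusted p of 0.0396. In the PBS pair it stood at 30% of 30 reads in Treg and 41.4% of 29 in Teff, a difference of -11.4 points that was not called. The 5 positions of this window lay within 52 bases and had 5 to 7 reads each, so a handful of molecules stood behind each level. The call was lost with 3 or more positions to a window, where more windows are tested, and with reads divided by 3. The window at 11762001 was higher in Treg in both pairs, at 63.5%, 30.9%, 54.2% and 35.8%, but was called in neither. The window at 11691001 was at or below 3.57% in every library.

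Ikzf3 showed opposite differences in 2 neighbouring windows. The window at 98512001 to 98513000 was lower in Treg, at 55.9% of 118 reads in OX40L-JAG1 Treg, 91.9% of 135 in OX40L-JAG1 Teff, 65.8% of 187 in PBS Treg and 83.6% of 171 in PBS Teff. The difference of -35.9 points (-45.6 to -25.5) in the OX40L-JAG1 pair was called, while the -17.9 points (-26.4 to -8.87) in the PBS pair fell short of 20 points, though Fisher's exact test gave a Benjamini-Hochberg adjusted p of 0.036. The window at 98513001 to 98514000 was higher in Treg, at 67.7% of 62 reads in OX40L-JAG1 Treg, 49.4% of 77 in OX40L-JAG1 Teff, 44.0% of 84 in PBS Treg and 18.2% of 99 in PBS Teff.

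At 98513001 the difference was called in the PBS pair, at 25.9 points (12.5 to 38.3), and not in the OX40L-JAG1 pair, at 18.4 points (1.88 to 33.4). It was also the only family window called for the treatment in Teff, where OX40L-JAG1 was higher than PBS by 31.2 points (17.2 to 43.8) and 0.0881% of all windows were called higher. Both calls used the PBS Teff library, the lowest at this window, so they are not separate results. The 23.7 points (7.37 to 38.1) by which OX40L-JAG1 Treg exceeded PBS Treg were not called. Of the 5 most divergent positions of Ikzf3, 3 lay in the window at 98512001 and were lower in Treg in both pairs. Position 98512661 had 1 of 8 reads methylated in OX40L-JAG1 Treg, 9 of 9 in OX40L-JAG1 Teff, 8 of 17 in PBS Treg and 11 of 13 in PBS Teff. Positions 98512460 and 98512485 had 0 of 7 and 0 of 6 reads methylated in OX40L-JAG1 Treg, against 4 of 5 and 3 of 5 in OX40L-JAG1 Teff. With PBS they had 6 of 17 and 4 of 16 in Treg, against 4 of 7 and 6 of 9 in Teff. At 98478567 and 98473732 the pairs differed in opposite directions on 5 to 10 reads, and 0 of the 5 were called. The difference at 98513001 lay in 4 of the 7 positions, picked out after their values were seen, at 98513648, 98513850, 98513885 and 98513898. These ranged between 50% and 90.9% in OX40L-JAG1 Treg, 20% and 52.4% in OX40L-JAG1 Teff, 18.8% and 55.6% in PBS Treg, and 4.35% and 5.88% in PBS Teff. The 3 positions before them were at 50% or more in every library. When each position had equal weight, the difference of the window in the PBS pair was 11.8 points. The remaining 22 windows of Ikzf3 were not called in any comparison.

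**Figure D4:**
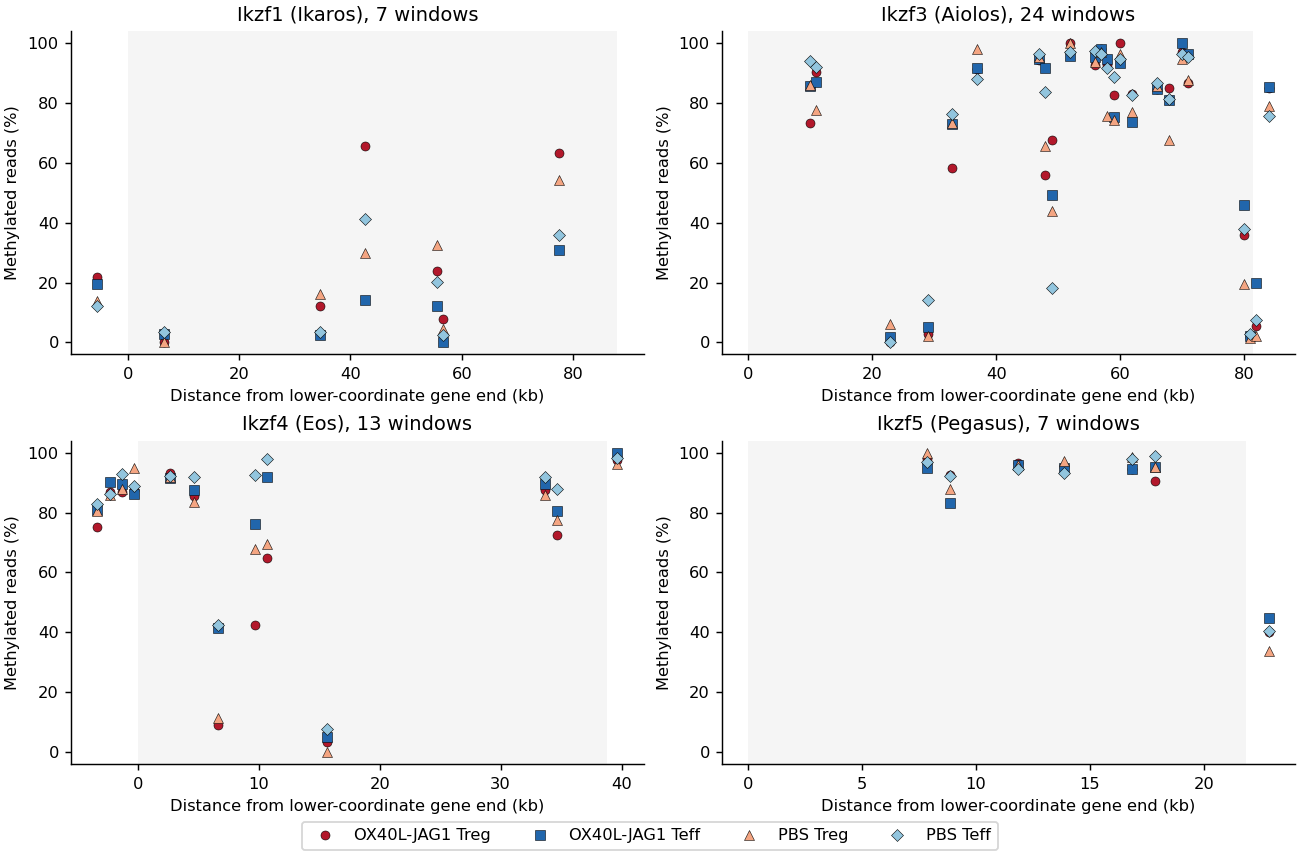
Levels (y axis, %) of all tested windows of Ikzf1, Ikzf3, Ikzf4 and Ikzf5 in the 4 libraries against distance from the lower-coordinate end of each gene in kb, with the gene shaded. Treg lies below Teff in 3 Ikzf4 windows between 6 and 12 kb, above Teff in several Ikzf1 windows, and the libraries lie together at Ikzf5.

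At Ikzf5 the 4 libraries lay together. None of its 7 windows was called in any comparison, and the Treg minus Teff differences ran between -4.93 and 9.35 points in the OX40L-JAG1 pair and between -6.95 and 3.73 points in the PBS pair. Its most divergent window, 131397001, stood at 92.7% in OX40L-JAG1 Treg, 83.3% in OX40L-JAG1 Teff, 87.9% in PBS Treg and 92.2% in PBS Teff on 41 to 103 reads. Of its 5 most divergent positions 0 were called. Positions 131388802 and 131401414 were lower in Treg in both pairs, at 57.1% and 66.7% in OX40L-JAG1 Treg, 100% each in OX40L-JAG1 Teff, 50% and 44.4% in PBS Treg and 81.8% and 75.0% in PBS Teff, on 6 to 12 reads. The other 3, at 131408802, 131397332 and 131397764, had no difference of 20 points in the same direction in both pairs. The window at 131411001, just past the gene and inside the locus of its neighbour Acadsb, was at 40.2%, 44.9%, 33.6% and 40.6%.

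Over whole loci the treatment differences of the other members stayed within 5 points in the main analysis. Without deep positions that of Ikzf4 in Treg passed 5 points, as did that of Ikzf3 in Teff when centred on the median gene. OX40L-JAG1 minus PBS in Treg was -4.88 points (-7.67 to -2.09) at Ikzf4, 1.83 points (-2.30 to 5.94) at Ikzf1, 1.93 points (-0.280 to 4.12) at Ikzf3 and -1.44 points (-4.98 to 2.09) at Ikzf5. In Teff it was -0.792 points (-2.99 to 1.39) at Ikzf4, -4.36 points (-7.83 to -0.867) at Ikzf1, 2.18 points (0.274 to 4.06) at Ikzf3 and 0.162 points (-2.76 to 3.04) at Ikzf5. Centred on the median gene, the value of Ikzf4 in Teff was 2.17 points and that of Ikzf5 in Treg 0.677 points, so both turned sign. At Ikzf3 both values were above 0, where the middle 90% of genes ran from -6.55 to 2.18 points in Treg and from -7.32 to 1.65 points in Teff. At Ikzf3 in Teff 902 of 23720 genes were higher.

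The 2 cell type comparisons share no library, so their agreement window by window is that of separate libraries. Each pair is 1 library against 1 under its own treatment, so the agreement is no replicate of a condition. Across the 43 Ikzf2 windows the Treg minus Teff differences of the 2 pairs had a Pearson correlation of 0.93 and a median gap of 5.14 points. Across the 13 Ikzf4 windows it was 0.94, across the 24 Ikzf3 windows 0.49 and across all 314517 windows 0.12. Only 3 of the 13 Ikzf4 windows were lower by 20 points or more in both pairs. Without deep positions 0 Ikzf4 windows were called lower in both pairs. Windows within a gene are not independent, and windows near 0% or 100% in all libraries cannot differ. The 7 Ikzf1 windows gave -0.17, and 11727001 had opposite signs in the 2 pairs.

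**Figure D5:**
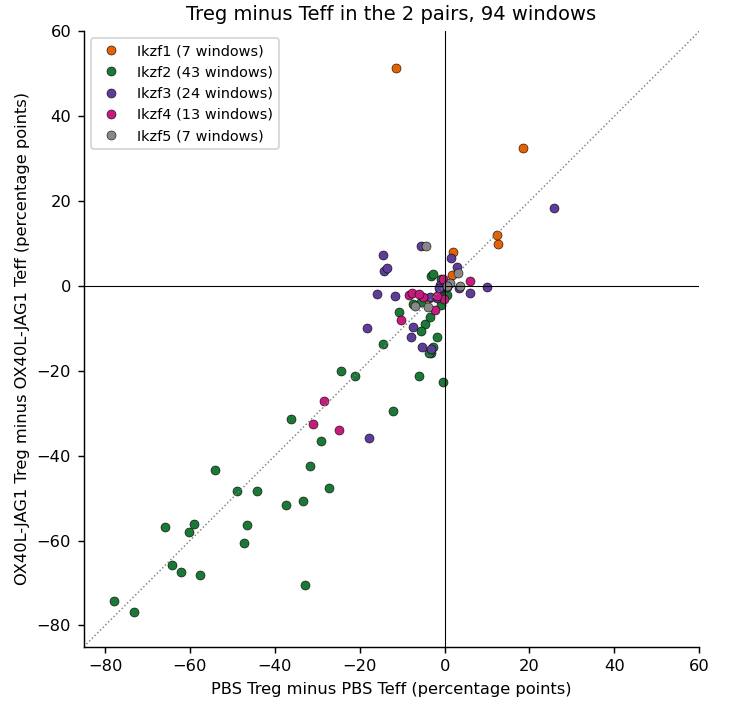
Treg minus Teff difference of each of the 94 family windows in the OX40L-JAG1 pair (y axis) against the PBS pair (x axis), in percentage points, coloured by gene, with the dotted line marking equal values. Ikzf2 windows lie along the line down to -78.0 points, Ikzf1 windows lie mostly above 0, and 1 Ikzf1 window at 51.3 points in the OX40L-JAG1 pair lies far from the line.

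Among 13804 genes with at least 30 usable positions that are not predicted models and do not overlap the family, Smc4, Il2ra, Slamf1, Trim59 and Elk3 had the 4 locus levels closest to those of Ikzf2. The distance, taken over the 4 libraries, was 8.27 points for Smc4, a condensin subunit, at 57.4% in OX40L-JAG1 Treg, 75.7% in OX40L-JAG1 Teff, 56.5% in PBS Treg and 79.5% in PBS Teff. It was 11.99 points for Il2ra, which encodes the CD25 chain used in the sort, at 64.6%, 78.2%, 65.1% and 82.1%. Trim59 lies beside Smc4 and shares flanking positions with it, Slamf1 encodes a surface receptor of lymphocytes, and Elk3 encodes an ETS transcription factor. Closest to Ikzf4 were Eps8l1, Il21r, Lbh, Slamf1 and Ccng2, at distances of 5.62 to 7.08 points.

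Of 28 genes known as partners or relatives in function of Ikaros proteins, those with a window called between cell types were T cell factors. Of the 6 genes in that group, 5 had a tested window. Satb1 held 22 windows and Runx1 27, so a call had more windows to fall in there. In the OX40L-JAG1 pair 2 had a window lower in Treg and 2 a window higher, against 0.395% and 0.408% of all genes with a window. In the PBS pair 1 had a window lower and 3 a window higher, against 1.18% and 0.889%. Runx3, a transcription factor of cytotoxic T cells, was higher in Treg in both pairs at chromosome 4, 135120001, with 50.6% in OX40L-JAG1 Treg, 23.1% in OX40L-JAG1 Teff, 44.9% in PBS Treg and 14.8% in PBS Teff. Gata3, the factor of type 2 helper cells, was lower in OX40L-JAG1 Treg at chromosome 2, 9868001, with 60% there and 82.99% in OX40L-JAG1 Teff. The PBS libraries stood at 70.8% in Treg and 81.8% in Teff and were not called. Foxp3, the defining factor of Treg, was lower in Treg in both pairs at chromosome X, 7580001, with 46.5%, 94.3%, 41.0% and 94.6% in OX40L-JAG1 Treg, OX40L-JAG1 Teff, PBS Treg and PBS Teff. Satb1, a chromatin organiser of T cells, was higher in both pairs at chromosome 17, 51822001, with 81.4%, 36.8%, 59.7% and 14.8%, and 4 of its windows were higher in the PBS pair. Runx1, a factor of blood and T cell development, was higher in Treg in the PBS pair alone, at chromosome 16, 92716001, with 89.3%, 72.4%, 78.8% and 48.3%. With the treatment, Satb1 and Runx1 each had a window higher in Teff, against 0.702% of genes, and Satb1 had a window higher in Treg, against 0.164%. The PBS pair and the treatment comparison in Teff share the PBS Teff library, so their calls are not independent.

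Of the 13 genes of NuRD, the chromatin remodelling and deacetylase complex, 12 had a window and 0 were called between cell types. In each pair and direction between 0.395% and 1.18% of all genes with a window were called, so this 0 says nothing particular about NuRD. For the treatment in Teff 1 NuRD gene was higher and 1 lower, against 0.702% and 2.61% of genes. Chd3, a remodelling ATPase of NuRD, stood at 37.6% in OX40L-JAG1 Teff and 16.2% in PBS Teff at chromosome 11, 69372001, in the flank of the gene. Mbd2, a methyl-CpG binding subunit, stood at 58.6% in OX40L-JAG1 Teff and 90.8% in PBS Teff at chromosome 18, 70631001, also in the flank. In Treg this window stood at 59.2% with OX40L-JAG1 and 86.9% with PBS, which Fisher's exact test did not call at a Benjamini-Hochberg adjusted p of 0.086. None of the 3 other corepressor genes with a window and none of the 5 genes of the Crbn ubiquitin ligase, which degrades Ikaros and Aiolos when bound by immunomodulatory drugs, was called between cell types or for the treatment in Teff. At the same background shares, counts of 0 among so few genes say nothing particular about them.

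The sorted populations were also read at marker genes of several cell types. Of 6 Treg genes, among them Ikzf2 itself, 3 (Foxp3, Il2ra and Ikzf2) were called lower in Treg under both treatments and 0 higher, against 0.201% and 0.161% of all genes with a window. Ikzf2 is the gene under study, so it is no separate marker, and its 43 windows gave a call more room. Ctla4, Tnfrsf18 and Capg were not called. Their locus differences were -40.0, -4.59 and -1.89 points with OX40L-JAG1 and -46.9, -15.9 and -3.01 points with PBS. Ctla4 held 1 window. Of 6 B cell genes and of 5 CD8 T and NK cell genes with a window, 0 had a called window in either pair. In each pair and direction between 0.395% and 1.18% of all genes with a window had one, so counts of 0 among so few genes say little. Locus levels of the B cell genes ranged from 51.3% to 87.3% in OX40L-JAG1 Treg, from 51.8% to 88.2% in OX40L-JAG1 Teff, from 53.0% to 89.9% in PBS Treg and from 54.3% to 91.3% in PBS Teff. Of the 7 genes shared by T cells, 0 had a called window in the OX40L-JAG1 pair. The antigen receptor subunit Cd3e had a window higher in Treg in the PBS pair, and it also had one higher with OX40L-JAG1 in Teff. Its locus stood at 57.5% in OX40L-JAG1 Treg, 46.1% in OX40L-JAG1 Teff, 45.01% in PBS Treg and 26.1% in PBS Teff. Both Cd3e calls used the PBS Teff library, so they are not separate results. The median locus difference of the 7 genes was 5.76 points in the OX40L-JAG1 pair and 3.50 points in the PBS pair. The genes did not share a direction. Cd3e, Cd3d, Cd3g and Cd4 were higher in Treg under both treatments. Cd5 was lower in Treg under both, at -11.6 points with OX40L-JAG1 and -15.3 points with PBS. Zap70 and Lck were lower in Treg with PBS only, at -10.6 and -5.04 points. Of 5 myeloid genes with a window, 1, the transcription factor gene Spi1, was higher in Treg in both pairs. The part that other cell types in a sort play in the family's differences was not tested.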

How the data were processed

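Methylation was measured in 4 whole-genome bisulfite libraries, prepared with kits of Kapa Biosystems and, for bisulfite conversion, Zymo Research, per the labels. The authors ran Trimmomatic and Bismark on mm10 (source: the submitters' processing notes); their versions and settings, and whether duplicate reads were removed, are not given in the sources used here. Per the file headers, the deposited table gives for each cytosine position the count of reads and the count of methylated reads. The deposited level is headed as a percentage but is a fraction from 0 to 1 that equals methylated reads over reads. No position is listed with 1 to 4 reads, so the totals of the deposited counts, 103584075 reads for OX40L-JAG1 Treg, 159291553 for OX40L-JAG1 Teff, 131555634 for PBS Treg and 208402911 for PBS Teff, are not sequencing depths.

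Counts were summed over positions that reached 5 reads in each of the 4 libraries, without the mitochondrial genome, in windows of 1 kb and over loci, with Python 3.11.15, numpy 2.4.6, pandas 2.3.3 and scipy 1.17.1. Both strands are listed as separate positions. Levels were compared by two-sided Fisher's exact tests with Benjamini-Hochberg adjustment over all windows or positions. The interaction was tested by a logistic Wald test after adding 0.5 to every read number. A call needed an adjusted p below 0.05 and at least 20 points, and the tests were tried on simulated reads. The Ikaros family, the marker and partner lists and the thresholds were chosen with earlier results of these data known. Values were given for up to 8 called windows of Ikzf2 and up to 3 of each other member, ranked by the summed absolute differences of both pairs, and up to 5 positions of each member by the same rank; a member with no called window got its window of largest sum, and other windows or positions in the text were picked after their values were seen. Like genes were the 5 with the smallest Euclidean distance of locus levels. Promoter sequence was matched by symbol for 2 of the 5 members, and those of Ikzf2, Ikzf3 and Ikzf4 were not used here. Alternatives changed the minimum reads, the window offset and filling, the depth limit, the read numbers and the thresholds.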

Additional observations from a re-analysis of the deposited data

How the results depend on the processing

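No paired analysis was possible because each group is 1 library, and leaving out a replicate was likewise not possible. Of the 94 family windows, 21 were lower in both pairs. That count was 4 with at least 10 reads at a position (3 at Ikzf2, 1 at Ikzf4, of 22 windows left), 8 with reads divided by 3 (7 and 1) and 13 without deep positions (13 and 0). At Ikzf4 it was 1 with a threshold of 30 points. Windows lower in the OX40L-JAG1 pair numbered 4 with 10 reads and 9 with reads divided by 3, against 24. Windows lower in the PBS pair numbered 4 and 11 under these settings, 13 without deep positions and 46 with positions read in the 2 libraries compared, against 22. The single window higher in the OX40L-JAG1 pair became 0 with 10 reads, with 3 positions to a window, with reads divided by 3 and without deep positions. The single window higher in the PBS pair became 0 with 10 reads, shifted windows, reads divided by 3, no deep positions or 30 points, and 2 with positions of the 2 libraries. For the treatment in Teff, the 1 higher window became 0 with 10 reads, shifted windows or reads divided by 3, and 2 with positions of the 2 libraries, while lower windows, 0 in the main analysis, numbered 2, 1 and 1 with positions of the 2 libraries, shifted windows and 3 positions. For the treatment in Treg, the 1 lower window became 0 with reads divided by 3, centred differences, no deep positions or 30 points, and 2 with positions of the 2 libraries or shifted windows. At least 10 reads gave 1 position higher in the PBS pair, against 0.

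The Ikzf5 difference in the OX40L-JAG1 pair was 0.524 points within the gene bounds alone, against -3.35 points with flanks. Small treatment differences also changed sign: that of Ikzf1 in Treg with 10 reads (-0.476 points), of Ikzf4 in Teff when centred or without deep positions (0.992), of Ikzf5 in Teff without flanks or as a mean of positions (-1.3), and of Ikzf5 in Treg when centred (0.677). The other locus differences kept their direction under the 6 alternatives run. With at least 10 reads, Ikzf1 was 14.8 points in the PBS pair and -0.494 in Teff, Ikzf2 was -23.9 in the OX40L-JAG1 pair and -5.12 in Teff, Ikzf3 was -0.127 in the OX40L-JAG1 pair, and Ikzf4 was -14.4 in the PBS pair and -2.05 in Treg. Without flanks, Ikzf2 was -29.6 and -25.8 points in the OX40L-JAG1 and PBS pairs, Ikzf4 was -18.5 and -15.4, and Ikzf5 was -2.95 in Teff. As a mean of position levels, Ikzf2 was -28.2 in the OX40L-JAG1 pair and -2.01 in Teff, and Ikzf4 was -6.84 and -6.86 in the pairs. Without deep positions, Ikzf2 was -28.2 in the OX40L-JAG1 pair and -2.15 in Teff, and Ikzf4 was -11.7, -1.09 and -9.66 in the OX40L-JAG1 pair, the PBS pair and Treg. Centred on the median gene, the treatment differences in Teff were -0.855 at Ikzf2, 5.14 at Ikzf3, 2.17 at Ikzf4 and 3.12 at Ikzf5, and that of Ikzf2 in Treg was -4.61. Positions of the 2 libraries alone gave -24.7 at Ikzf2 in the PBS pair. The cause of these shifts was not tested. At 5 to 15 reads a single position could rarely be called.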

Other observations

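Where both strands of a CpG were read in all 4 libraries, the methylation of the strands could be set side by side. Ikzf2 held 18 such CpGs. The median gap between the strands was 12.6 points in OX40L-JAG1 Treg, 10.0 points in OX40L-JAG1 Teff, 15.5 points in PBS Treg and 6.31 points in PBS Teff. Ikzf4 and Ikzf5 held 5 such CpGs each, and Ikzf3 and Ikzf1 held 2 and 1.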
